A study of Homo sapiens with 8 samples.

Results

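The 9 genes described here encode the transcription factor NRF2 (gene NFE2L2), its inhibitor KEAP1, the antioxidant enzymes and redox proteins TXNRD1, TXN, SRXN1, NQO1 and HMOX1, and the ferritin chains FTH1 and FTL. They were taken by name, with earlier results of these data known, and all 9 were found among the 38551 genes with counts. They were measured by RNA-sequencing in MOLM-13, a line of human acute myeloid leukemia (AML) cells that carries a KMT2A rearrangement. The groups were 4 libraries of cells given DMSO, the diluent, and 4 libraries of cells given 100 nM PR-957 (ONX-0914), an inhibitor of the immunoproteasome subunit PSMB8, all harvested after 72 h. The study used this comparison to ask which transcripts respond when the immunoproteasome is inhibited. It covers 1 cell line, 1 dose and 1 time, and no label says whether replicates came from separate cultures, so p-values measure only the spread between these libraries.

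NRF2 is made continuously and is held low by KEAP1, which hands it to a CUL3 ubiquitin ligase for destruction by the proteasome. Oxidants or electrophiles that modify KEAP1 let NRF2 accumulate, pair with a small MAF protein and bind the antioxidant response element in its target genes. The amount of NRF2 protein therefore need not follow its mRNA, and RNA-sequencing does not measure the protein. Ferritin is a shell of heavy (FTH1) and light (FTL) chains that stores iron: the heavy chain carries the ferroxidase activity, and the light chain helps to form the mineral core. Translation of both chains is controlled by iron-regulatory proteins that bind an iron-responsive element in their mRNA, and both genes are also known NRF2 targets.

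Promoter windows from 250 bases before to 50 bases after an annotated start were held in the RefSeq set used here (GRCh38.p14) for 7 of the 9 genes, 10 windows in all. HMOX1 and FTH1 had no entry. The core of the antioxidant response element, TGACNNNGC, was searched on both strands, and 3 of the 10 windows held it, those of KEAP1 and TXNRD1 only. Over all promoters 13.3% of 35116 windows held it, so that the letters alone are common. The matches are shown because the element is the sequence through which NRF2 acts, each printed 5′ to 3′ along the strand that reads TGAC, with the matched core in capitals and 10 bases on either side. The first TXNRD1 match and the first KEAP1 match read along the strand of the gene and the other matches along the opposite strand.
TXNRD1, chr12:104215670-104215698: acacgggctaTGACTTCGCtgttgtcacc
TXNRD1, chr12:104215761-104215789: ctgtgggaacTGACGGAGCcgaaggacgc
TXNRD1, chr12:104286920-104286948: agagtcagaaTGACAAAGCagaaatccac
KEAP1, chr19:10502807-10502835: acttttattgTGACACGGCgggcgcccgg
KEAP1, chr19:10502784-10502812: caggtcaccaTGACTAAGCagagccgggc

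The iron-responsive element of FTL lies in the 5′ untranslated region and is the RNA hairpin by which iron-regulatory proteins hold back translation. It is shown in part, with its loop CAGTGT in capitals (written as DNA, strand of the gene). The window ends 50 bases after the start, so that the 3′ side of the hairpin is cut off. The letters CAACAGTG occurred within 50 bases after the start in 36 of 35116 windows (0.103%).
FTL, chr19:48965334-48965358: tctcttgcttcaaCAGTGTttggac

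The bases before the start of NQO1 are shown because NQO1 rose, on the minus strand and with the letters TATAA in capitals. TATAA was found in the windows of NQO1 and TXN and in 20.4% of all windows, both strands searched. The NQO1 window held no TGACNNNGC, which says only that those letters are not within these bases.
NQO1, chr16:69726561-69726810: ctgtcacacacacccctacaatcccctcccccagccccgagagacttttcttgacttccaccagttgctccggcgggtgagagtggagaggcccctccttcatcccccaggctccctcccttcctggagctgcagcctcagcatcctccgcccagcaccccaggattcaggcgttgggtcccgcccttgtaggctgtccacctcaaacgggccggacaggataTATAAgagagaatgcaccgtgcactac

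Libraries held 16675036 to 23111223 counted read pairs in genes, and 13179 genes had enough counts to be tested. With PR-957, 23.1% of the tested genes rose and 23.5% fell (46.6% in either direction) in edgeR's quasi-likelihood test, with Benjamini-Hochberg adjustment over all tested genes and 0.05 as the threshold, and for 42.5% the values of the 2 groups did not overlap. DMSO replicate 4 stood apart from the other controls across all genes, with a chi-square per gene of 10.2 to 15.3 against them, beside 3.32 to 5.83 among the other 3 controls and 4.43 to 9.08 among the PR-957 libraries. Markers of a myeloid leukemia line (CD33, SPI1, FLT3, PTPRC, MPO, HOXA9, MEIS1 and CEBPA) were present in all libraries, the lowest being HOXA9 at 6.41 counts per 1000000 counted read pairs (CPM). Values below are CPM on library sizes normalised by the trimmed mean of M-values, and changes are log2 fold changes of PR-957 relative to DMSO with standard error (SE). In bulk RNA, a change in the share of cells that express a gene and a change in RNA per cell cannot be told apart.

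All 9 genes passed the filter on low counts, HMOX1 only through its PR-957 libraries, so that its higher level with PR-957 is part of why it was tested. After PR-957, 4 of the 9 rose (HMOX1, FTL, NQO1 and TXNRD1), beside 23.1% of all tested genes, 1 fell (FTH1), beside 23.5%, and NFE2L2, KEAP1, TXN and SRXN1 did not pass the test. The 2 groups did not overlap for 6 of the 9, beside 42.5% of all tested genes. The median log2 fold change of the 9 genes was 0.11, and that of all tested genes was 0.0030. In replicates 1 and 2 alone, 4 of the 9 rose and 1 fell, where 20.2% of all tested genes rose and 20.2% fell. In replicates 3 and 4 alone, 3 rose and 1 fell, where 17.3% rose and 17.3% fell.

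**Figure D1:**
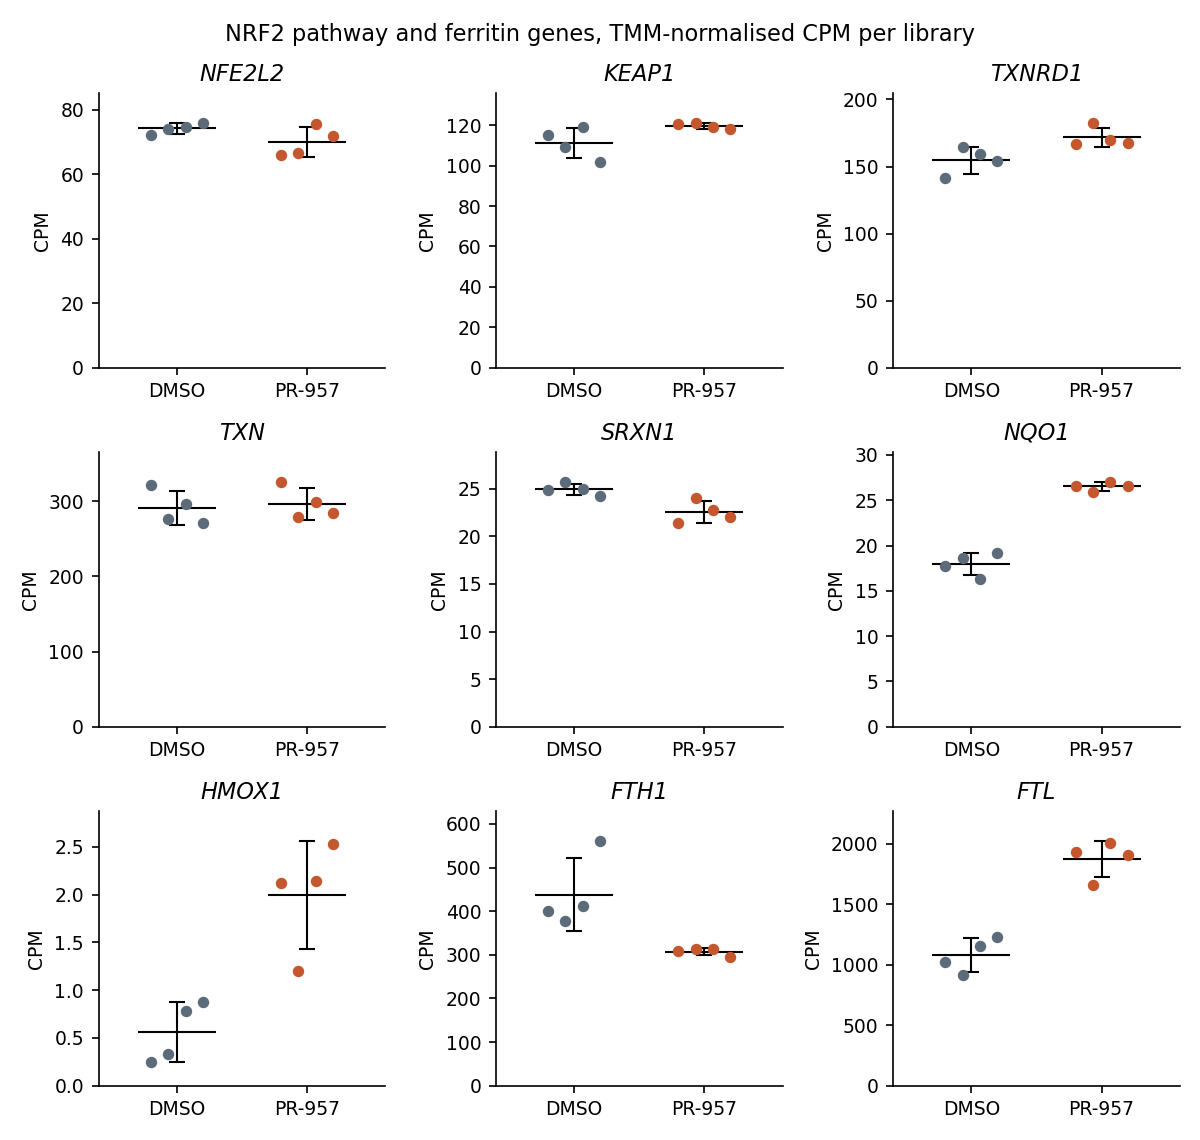
Normalised expression (CPM, linear axis from 0) of the 9 genes in each of 4 DMSO and 4 PR-957 libraries; points are libraries, long bars group means and whiskers the SD. Points of the groups are fully apart for TXNRD1, SRXN1, NQO1, HMOX1, FTH1 and FTL, with FTL moving up and FTH1 moving down.

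The mRNAs of the factor and of its inhibitor did not pass the test. NFE2L2 was measured at 72.2, 74.2, 74.6 and 76.0 CPM in DMSO replicates 1 to 4 and at 66.0, 66.6, 75.6 and 71.8 CPM in PR-957 replicates 1 to 4. PR-957 replicate 3 lay inside the DMSO range and the other 3 PR-957 libraries below it. The means were 74.2 ± 1.58 and 70.0 ± 4.53 CPM (SD, n = 4), a log2 fold change of -0.08 (SE 0.06, 95% interval -0.21 to 0.04, adjusted p = 0.246 by edgeR).

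KEAP1, the adaptor that recognises NRF2 for ubiquitination, was at 115, 109, 119 and 102 CPM with DMSO and at 121, 121, 119 and 118 CPM with PR-957. The treated libraries were close together at or just above the upper end of the DMSO range. The log2 fold change was 0.11 (SE 0.06, 95% interval -0.01 to 0.22, adjusted p = 0.126 by edgeR). Per unit length, the NFE2L2 to KEAP1 ratio lay between 0.530 and 0.630 in the DMSO libraries and between 0.463 and 0.536 in the PR-957 libraries, so that the groups overlapped here as well.

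The thioredoxin branch gave 1 rise. TXNRD1 is the cytosolic selenoenzyme that uses NADPH to reduce thioredoxin. It was counted at 141, 165, 159 and 154 CPM with DMSO and at 167, 183, 170.1 and 168 CPM with PR-957. All PR-957 values were above all DMSO values, but the lowest PR-957 library and the highest DMSO library were nearly level. The log2 fold change was 0.15 (SE 0.06, 95% interval 0.03 to 0.27, adjusted p = 0.0381 by edgeR), and the call held in 14 of 19 alternative analyses. It was lost without DMSO replicate 1 (0.11, adjusted p = 0.154), PR-957 replicate 2 (0.12, adjusted p = 0.123) or PR-957 replicate 3 (0.16, adjusted p = 0.0694), and in replicates 3 and 4 alone (0.10, adjusted p = 0.298).

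TXN is thioredoxin itself, a small protein that reduces disulfides in other proteins. Its values were 321, 277, 297 and 271 CPM with DMSO and 326, 278, 298 and 284 CPM with PR-957, and the groups overlapped almost fully. In both groups replicate 1 was the highest. The log2 fold change was 0.03 (SE 0.06, 95% interval -0.11 to 0.16, adjusted p = 0.749 by edgeR), and its sign turned, still short of the threshold, without DMSO replicate 4 or without PR-957 replicate 1.

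SRXN1 (sulfiredoxin) repairs over-oxidised peroxiredoxins and is a textbook NRF2 target. It stood at 24.9, 25.7, 24.9 and 24.3 CPM with DMSO and at 21.4, 24.1, 22.7 and 22.0 CPM with PR-957. Each PR-957 value was below each DMSO value, yet the difference did not pass the test, with a log2 fold change of -0.14 (SE 0.07, 95% interval -0.30 to 0.01, adjusted p = 0.112 by edgeR). Its interval excludes a rise of the size seen for NQO1.

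NQO1 is a quinone reductase that turns quinones into hydroquinones and is widely used as a readout of NRF2 activity. With DMSO it was at 17.7, 18.7, 16.3 and 19.1 CPM, and with PR-957 at 26.6, 25.9, 27.0 and 26.5 CPM. The PR-957 libraries were tightly grouped and well above every DMSO library. NQO1 rose from 18.0 ± 1.25 to 26.5 ± 0.446 CPM (SD, n = 4), which is 1.47-fold (log2 fold change 0.56, SE 0.08, adjusted p = 7.67e-06 by edgeR). The increase was seen alike in replicates 1 and 2 alone (0.53) and in replicates 3 and 4 alone (0.59).

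HMOX1 is the inducible haem oxygenase, which opens the haem ring and releases iron, carbon monoxide and biliverdin. It had the largest log2 fold change of the 9 genes and by far the lowest level. Its raw counts were 4, 6, 13 and 20 in the DMSO libraries and 38, 23, 47 and 45 in the PR-957 libraries, so that counting error is large. In CPM these were 0.251, 0.334, 0.785 and 0.874 with DMSO and 2.12, 1.20, 2.15 and 2.53 with PR-957. All PR-957 libraries were above all DMSO libraries, and within each group replicates 1 and 2 were below replicates 3 and 4, narrowly so for PR-957 replicate 1 against replicate 3.

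HMOX1 rose with a log2 fold change of 1.78 (SE 0.35, 95% interval 1.04 to 2.51, adjusted p = 0.000381 by edgeR), 3.43-fold. The fit on replicates 1 and 2 alone gave 2.46 and that on replicates 3 and 4 alone gave 1.47, both past the threshold. Against the 13179 tested genes, HMOX1 ranked 11855 by mean level per length with DMSO and 9966 with PR-957, so that it remained a weakly expressed gene. The genes outside the 9 whose log2 CPM followed that of HMOX1 most closely over the 8 libraries were ENAH, an actin regulator (Pearson r = 0.992), the annexin ANXA6 (0.985) and COL4A1, a basement membrane collagen chain (0.985). These values describe 8 points that share libraries and treatment groups, among 11271 genes searched.

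**Figure D2:**
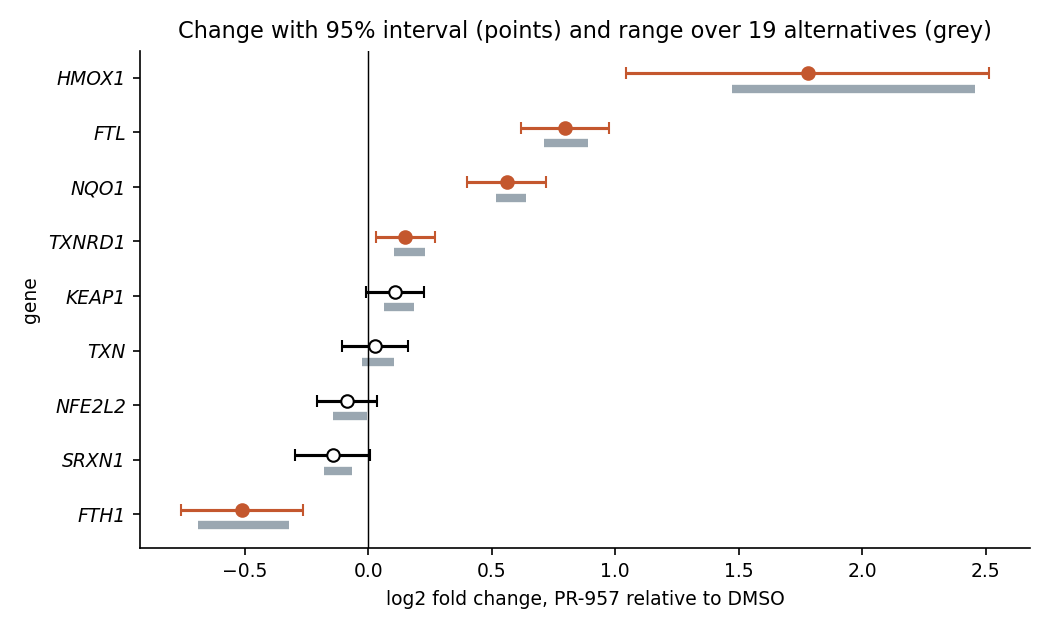
Log2 fold change (x axis) of each of the 9 genes, with its 95% interval (filled points, adjusted p under 0.05), and below it the range over 19 alternative analyses (grey). The intervals of HMOX1, FTL, NQO1, TXNRD1 and FTH1 leave out 0, and FTH1 alone of these lies on the negative side.

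The ferritin chains moved in opposite directions. FTL was at 1022, 918, 1150.2 and 1230.1 CPM with DMSO and at 1931, 1661, 2002 and 1904 CPM with PR-957, and the lowest treated library was well above the highest control. FTL rose from 1080.0 ± 138 to 1875 ± 148 CPM (SD, n = 4), 1.74-fold (log2 fold change 0.80, SE 0.08, adjusted p = 1.36e-06 by edgeR). Its log2 fold change stayed between 0.71 and 0.89 in 19 alternative analyses and passed the threshold in 19 of 19.

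FTH1 was at 401, 377, 413 and 561 CPM with DMSO and at 309.7, 313, 313 and 295 CPM with PR-957. The treated libraries lay within a narrow band below all controls, whereas DMSO replicate 4, the control that stood apart across all genes, was well above the other controls. FTH1 fell from 438 ± 83.4 to 308 ± 8.53 CPM (SD, n = 4), a log2 fold change of -0.51 (SE 0.11, 95% interval -0.76 to -0.26, adjusted p = 0.00358 by edgeR). Without DMSO replicate 4 the change was -0.37 (adjusted p = 3.01e-06), and it was -0.32 in replicates 1 and 2 alone and -0.69 in replicates 3 and 4 alone. The call was kept in 19 of 19 alternative analyses.

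Per unit length (FPKM, CPM per kilobase of the gene length in the count table), the FTL to FTH1 ratio was 2.59, 2.48, 2.84 and 2.23 in the DMSO libraries and 6.34, 5.41, 6.52 and 6.57 in the PR-957 libraries. By this measure the light chain made up 71.6% ± 2.03 of the summed FPKM of both chains with DMSO and 86.1% ± 1.13 with PR-957 (SD, n = 4). The sum of both chains was 1278 ± 179 FPKM with DMSO and 1842 ± 124 FPKM with PR-957, and the lowest treated library (1665 FPKM) exceeded the highest control (1507 FPKM). In the FTL to FTH1 ratio DMSO replicate 4 was the lowest control, and the groups were apart with and without it.

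Both ferritin genes and TXN have many processed pseudogenes (25 for FTH1, 16 for FTL and 7 for TXN in GENCODE v44), whose near-identical sequence takes reads away from genes where reads mapped to several places are not counted. The absolute levels of these 3 genes, their order and ranks, and the ratio and shares of the ferritin chains within a group are therefore uncertain. Of the 1203 exon bases of FTH1, 880 also lie in exons of BEST1 on the opposite strand, and BEST1 itself received only 55 to 160 counts per library beside 5244 to 12847 for FTH1. None of the other 8 genes shares exon bases with another gene of the table.

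**Figure D3:**
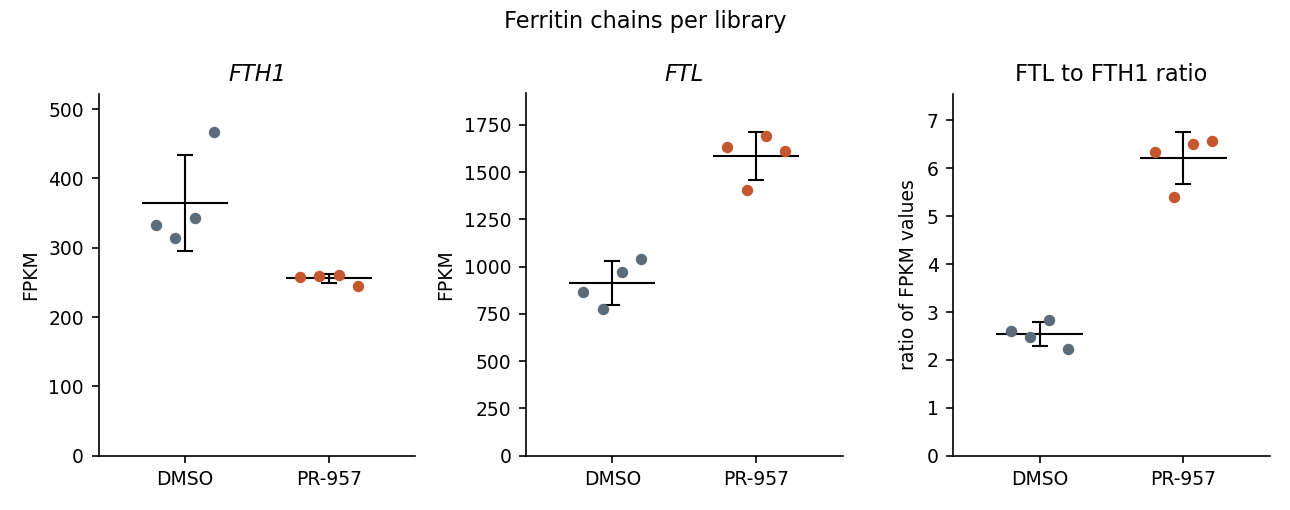
FTH1 and FTL levels (FPKM) and their ratio (ratio of FPKM values) in 4 DMSO and 4 PR-957 libraries, with group means (long bars) and SD (whiskers); axes are linear from 0. FTH1 is lower and FTL higher with PR-957, and the ratio goes from 2.53 ± 0.252 to 6.21 ± 0.543.

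In levels per length, the 9 genes spanned a wide range. With DMSO the order was FTL (914 FPKM), TXN (395), FTH1 (364), KEAP1 (36.7), TXNRD1 (36.3), NFE2L2 (20.7), SRXN1 (9.87), NQO1 (7.12) and HMOX1 (0.361 FPKM). TXN and FTH1, and also KEAP1 and TXNRD1, overlapped between libraries and cannot be ordered. With PR-957 it was FTL (1586 FPKM), TXN (403), FTH1 (256), TXNRD1 (40.3), KEAP1 (39.5), NFE2L2 (19.5), NQO1 (10.5), SRXN1 (8.92) and HMOX1 (1.29 FPKM), where only TXNRD1 and KEAP1 overlapped. NQO1 and SRXN1 changed places, and FTH1 no longer overlapped TXN. Among all tested genes FTL moved from rank 81 to rank 50 and FTH1 from rank 149 to rank 208.

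Among the partners and regulators of NRF2, 6 of 18 tested genes rose and 4 fell (median log2 fold change 0.06, beside 23.1% higher and 23.5% lower among all tested genes). Genes with the largest increases were NFE2, a related cap'n'collar factor of blood cells (0.86), the mitochondrial phosphatase PGAM5, which binds KEAP1 (0.42), and VCP, the segregase that pulls ubiquitinated proteins from complexes (0.41). The largest decreases were those of the small MAF protein MAFF (-1.58), of the cap'n'collar factor NFE2L1, which drives proteasome genes (-0.63), and of BACH1, a haem-sensitive repressor that competes with NRF2 and silences HMOX1 (-0.47). BACH1 fell from 23.6 ± 3.20 to 17.1 ± 1.77 CPM (SD, n = 4), with no overlap between groups (adjusted p = 0.00069 by edgeR). Its highest control was DMSO replicate 4 (28.3 CPM). MAFF was weakly expressed, at 3.07, 2.62, 3.38 and 6.95 CPM with DMSO and 1.06, 1.20, 1.92 and 1.18 CPM with PR-957. DMSO replicate 4 was again the highest control. The other small MAF genes were named after their values were seen. MAFG, at 155 CPM with DMSO, did not pass the test (0.11, adjusted p = 0.0671 by edgeR), and MAFK fell (-0.17). CUL3, the scaffold of the ligase that acts with KEAP1, was at 79.7 ± 0.575 CPM with DMSO and at 86.2 ± 5.08 CPM with PR-957 and did not pass the test (0.11, adjusted p = 0.107 by edgeR). SQSTM1 and BACH2 were not tested: the annotation places each at 2 locations, counts were near 0, and their level is unknown here.

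Of the further genes known as NRF2 targets, 14 of 27 tested rose and 2 fell (median 0.21, beside 23.1% and 23.5% of all tested genes). PIR, an iron-binding nuclear protein (1.15), CBR3, a carbonyl reductase (0.74), and TALDO1, an enzyme of the pentose phosphate pathway (0.62), had the largest increases among genes with an average log2 CPM of at least 1. CBR3 was weakly expressed and its groups overlapped, with PR-957 replicate 4 at 3.09 CPM and DMSO replicate 3 at 3.38 CPM. Below an average log2 CPM of 1, and named after its values were seen, OSGIN1, an oxidative stress response gene, rose from 0.371 ± 0.134 to 1.52 ± 0.234 CPM (SD, n = 4). Its log2 fold change was 1.98 (adjusted p = 6.83e-05 by edgeR). Like HMOX1, OSGIN1 passed the filter on low counts only through its PR-957 libraries. Its raw counts were 6, 8, 3 and 11 with DMSO and 26, 34, 27 and 29 with PR-957. Its higher level with PR-957 is thus part of why it was tested. SLC7A11, the cystine transporter that feeds glutathione synthesis, fell from 45.0 ± 0.782 to 13.3 ± 1.25 CPM (SD, n = 4; log2 fold change -1.76, adjusted p = 8.75e-13 by edgeR). TRIM16, a ubiquitin ligase, fell by 0.35 on the log2 scale. The direction of SLC7A11 was opposite to that of NQO1, HMOX1 and FTL.

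In haem metabolism 2 of 10 tested genes rose and 1 fell (median 0.03, beside 23.1% and 23.5% of all tested genes). BLVRA, a biliverdin reductase that acts on the product of haem oxygenase, rose from 3.58 ± 1.17 to 9.46 ± 3.19 CPM (SD, n = 4; log2 fold change 1.39, adjusted p = 0.00269 by edgeR). Its values were 2.69, 2.45, 4.71 and 4.46 CPM with DMSO and 7.13, 6.32, 11.8 and 12.6 CPM with PR-957. As with HMOX1, replicates 1 and 2 were below replicates 3 and 4 in both groups. UROD, an enzyme of haem synthesis, rose (0.80), and BLVRB, which reduces biliverdin and flavins, fell (-0.31). HMOX2, the constitutive haem oxygenase, was not tested because its counts were only 0 to 2 per library. The annotation places it at 2 locations, and its level is unknown here.

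Around thioredoxin, 7 of 21 tested genes of the thioredoxin and peroxiredoxin system rose and 3 fell (median 0.10, beside 23.1% and 23.5% of all tested genes). The methionine sulfoxide reductase MSRB1 (1.14), the endoplasmic reticulum peroxiredoxin PRDX4 (0.70) and the sestrin SESN3 (0.65) had the largest increases. TXNIP, the protein that binds and inhibits thioredoxin, fell from 337 ± 62.4 to 126 ± 9.19 CPM (SD, n = 4; log2 fold change -1.43, adjusted p = 1.34e-05 by edgeR), while TXN did not pass the test. Among the controls TXNIP was highest in DMSO replicate 4 (428 CPM, beside 288 to 329 CPM in the others). TXNL1 (-0.40) and PRDX5 (-0.36) fell as well. SESN2 was not tested because its counts were only 0 to 3 per library. The annotation places it at 2 locations like SQSTM1, and its level is unknown here.

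Of the enzymes that make or remove superoxide and peroxide, 5 of 13 tested genes rose and 1 fell (median 0.22, beside 23.1% and 23.5% of all tested genes). The superoxide dismutase SOD1 (0.47) and the phagocyte oxidase subunits NCF4 (0.47) and CYBA (0.38) rose, and GPX7 fell (-0.48). NCF4 and CYBA belong to the enzyme of phagocytes that makes superoxide, so that this list mixes producers and scavengers. On library totals alone 10 genes of it passed the test instead of 6.

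In iron handling, 4 of 17 tested genes rose and 4 fell (median 0.04, beside 23.1% and 23.5% of all tested genes). TFRC, the transferrin receptor that brings iron into the cell, rose from 101 ± 8.25 to 187 ± 11.8 CPM (SD, n = 4; log2 fold change 0.89, adjusted p = 1.57e-09 by edgeR). It rose along with FTL, the storage chain. The endosomal ferrireductase STEAP3 (0.54) also rose. The iron chaperone PCBP2, which delivers iron to ferritin (-0.40), FBXL5, the iron-sensing ligase subunit that targets IREB2 (-0.37), and the mitochondrial iron importer SLC25A37 (-0.28) fell. IREB2, an iron-regulatory protein that binds ferritin and transferrin receptor mRNA, was at 95.9 ± 7.71 CPM with DMSO and at 90.2 ± 5.02 CPM with PR-957 (-0.09, adjusted p = 0.251 by edgeR).

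Among selenoproteins and the factors that insert selenocysteine, as in TXNRD1, 3 of 11 tested genes rose and 3 fell (median 0.04, beside 23.1% and 23.5% of all tested genes). The small selenoproteins SELENOW (1.05), SELENOH (0.30) and SELENOK (0.22) rose. The synthesis factors SECISBP2 (-0.40), SEPSECS (-0.31) and SEPHS2 (-0.28) fell.

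**Figure D4:**
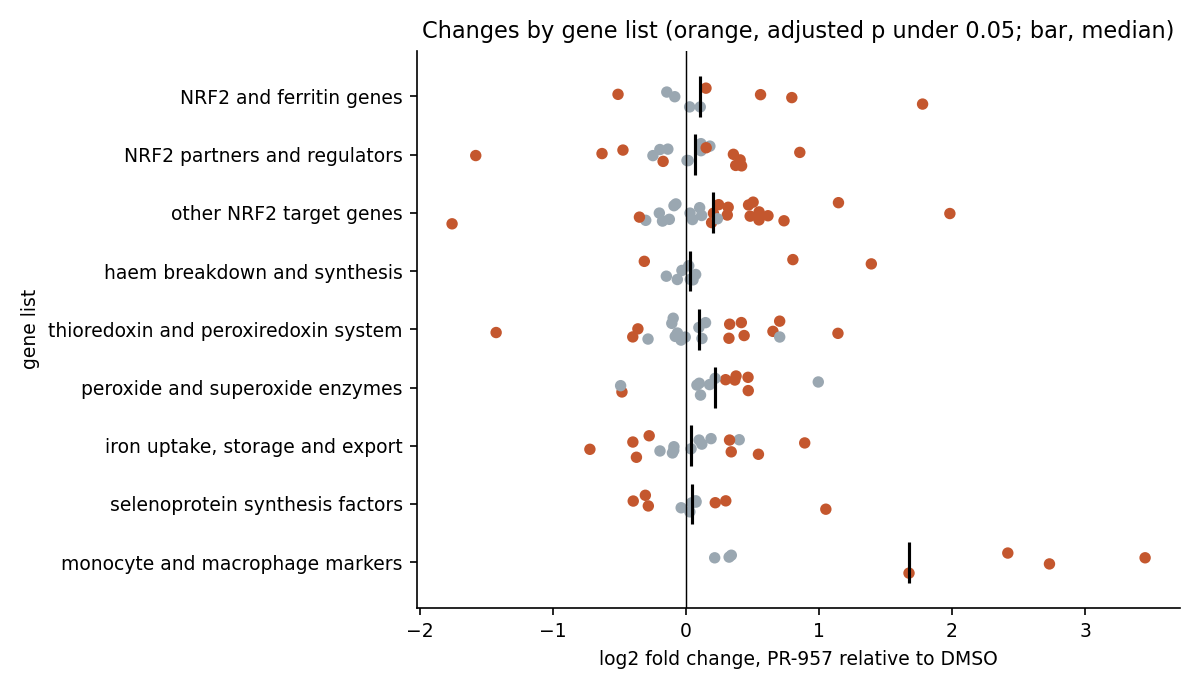
Log2 fold change (x axis) of each tested gene in the 9 genes, in 7 pathway lists and in the monocyte and macrophage markers; points are genes (orange, adjusted p under 0.05) and black bars list medians. The pathway lists have medians between 0.03 and 0.22 with genes on both sides of 0, and the marker list has a median of 1.68.

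Some monocyte and macrophage markers also rose, and others did not pass the test. The summed level of the list was 237 to 281 CPM in the DMSO libraries and 854 to 1098 CPM in the PR-957 libraries, most of it LYZ, the lysozyme gene. Of 13 markers 7 were tested and 4 rose (LYZ, S100A8, S100A9 and CD36, median of the tested 1.68, beside 23.1% of all tested genes), whereas CSF1R, CD68 and ITGAM did not pass the test. CD14, CD163, MRC1, FCGR3A and MSR1 were among those too low to test, each under 1 CPM in all libraries. CD68 had its highest DMSO value in replicate 4 (91.6 CPM), the library in which FTH1 was also highest. Ferritin and HMOX1 are expressed in monocytes and macrophages, and the part of these markers in the changes of FTL, FTH1 and HMOX1 was not tested. Of 12 markers of other cell types 3 were tested, PECAM1 rose and KRT18 fell (median -0.16), the summed level was 75.1 to 98.9 CPM with DMSO and 105 to 117 CPM with PR-957, and CD3E and PPBP were at 0 counts in all libraries.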

How the data were processed

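RNA of MOLM-13 cells was sequenced as paired ends from poly(A) libraries (TruSeq kit), 4 with DMSO and 4 with 100 nM PR-957 for 72 h. The authors deposited raw counts of read pairs per gene on hg38 with the gene length in bases. The submitters' processing notes list Trimmomatic 0.39, STAR 2.7.10a, featureCounts 2.0.1 and DESeq2, and per the file headers counting was reverse-stranded, took pairs with both ends mapped and did not count reads mapped to several places. A deposited table of the authors' own comparison (mean count, fold change and p-values) was not used. From the counts (6 rows without values left out) expression was fitted with edgeR 4.0.16 in R 4.3.3 over all 8 libraries: trimmed mean of M-values normalisation, the filterByExpr filter, robust quasi-likelihood fit and test of PR-957 against DMSO without covariates, and Benjamini-Hochberg adjustment over 13179 genes. Adjusted p-values under 0.05 were called. A script with the same steps was tested on simulated data. There 200 genes were changed, beside 6143 called here, so that test does not cover changes this widespread. Intervals are 95% intervals of the fit. FPKM is the TMM-normalised CPM divided by the deposited gene length in kilobases.

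Genes were grouped by name into 9 lists. The 9 genes and the lists were chosen with earlier results of these data known. Named beside the 9 genes were, per pathway list, up to 3 called genes with the largest increase and up to 3 with the largest decrease (average log2 CPM of at least 1), the direct partners CUL3, BACH1, TFRC, IREB2 and HMOX2, and the 3 genes most correlated with HMOX1. Members of the marker lists and genes that could not be tested were named after their values were seen. Some genes that the lists hold are not reported here by name. The 19 alternatives were DESeq2 1.42.0, limma-voom (limma 3.58.1), other scalings and filters, a replicate block, a pair term, replicates 1 and 2 or 3 and 4 alone, and leaving out each library. The normalised library sizes give a floor of 3 counts at 0.131 to 0.188 CPM, covering counting error only. No pair of libraries within a group agreed within sampling noise (lowest chi-square per gene 3.32).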

Additional observations from a re-analysis of the deposited data

Results flagged for a closer look

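Values that lay far from the other 3 of their group were searched for, among the 9 genes and the genes named by the stated rule only, in 90 groups of 4 libraries (Dixon's test), and 6 were found, where chance gives about 1 in 20 groups. None concerned the 9 genes. MAFF was at 1.92 CPM in PR-957 replicate 3 and at 1.06 to 1.20 CPM in the other treated libraries. PIR was at 0.780 CPM in DMSO replicate 2, below 1.57 to 1.63 CPM in the other controls, and at 3.57 CPM in PR-957 replicate 1, above 2.87 to 2.97 CPM in the others. TFRC was at 113 CPM in DMSO replicate 4 and at 95.1 to 97.8 CPM in the other controls, and FTH1 was highest in the same library. PCBP2 was at 674 CPM in PR-957 replicate 4 and at 633 to 639 CPM in the others. SEPHS2 was at 149 CPM in PR-957 replicate 1 and at 153 to 154 CPM in the others. Outside these groups, and picked after its values were seen, the phagocyte oxidase gene NCF1 was at 43.8 CPM in DMSO replicate 4 and at 15.3 to 17.1 CPM in the other controls.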

How the results depend on the processing

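The calls of NQO1, HMOX1, FTL (higher) and FTH1 (lower) kept their direction and passed the threshold in 19 of 19 alternatives; the count of genes called ranged from 4681 to 6913. TXNRD1 lost its call without the filter on low counts (0.15, adjusted p = 0.0607 by edgeR), in replicates 3 and 4 alone (0.10, 0.298) and without DMSO replicate 1, PR-957 replicate 2 or PR-957 replicate 3 (0.11 to 0.16). TXN, not called, turned to -0.0087 without DMSO replicate 4 and to -0.0250 without PR-957 replicate 1 (range without 1 library -0.0250 to 0.0752). With library totals alone as scaling, which moved the median of all genes to 0.08, 63.3% of called genes were higher instead of 49.6%, KEAP1 passed (0.19, adjusted p = 0.00601), and the peroxide and superoxide list had 10 called genes instead of 6. The monocyte and macrophage list had 7 called genes without the filter and in replicates 1 and 2 alone, and 4 to 7 without 1 library, instead of 4. The markers of other cell types had 1 called gene with library totals alone and in replicates 1 and 2 alone, 4 without the filter, and 1 to 2 without 1 library, instead of 2. The cause was not tested. Same-numbered libraries deviated together weakly (correlations 0.151, 0.213, 0.098 and 0.198). Of the 8 libraries 7 correlated best with their own number, and PR-957 replicate 3 with DMSO replicate 4. The main fit did not take the numbers as pairs, and no label says whether they are. With a replicate block 6913 genes were called and 4 of the 9 genes rose and 1 fell, the same calls, and the gene lists' counts moved by under 1.5 times (NRF2 partners 13 instead of 10, other targets 18 instead of 16, peroxide and superoxide enzymes 8 instead of 6). At these depths HMOX1, with 4 to 47 counts, is the least precise of the 9.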
